A study of Mus musculus with 18 samples.

Results

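Genes of intraflagellar transport (IFT) and of the cilium base were compared between lung epithelial cells sorted by a reporter of Wnt signalling. Members were the symbols of the platform annotation made of Ift, Bbs, Tctn or Nphp and digits only, with Mks1, Cc2d2a, B9d1, B9d2, Rpgrip1l, Kif3a, Kif3b, Dync2h1, Dync2li1, Traf3ip1 and Cluap1 added. The rule gave 37 of 30145 genes, each measured by 1 probe set of its own. It names symbols and no measured values, but it was chosen with earlier results of these data known. By complex, 13 members belong to IFT-B, 3 to IFT-A, 4 to the IFT motors, 6 to the BBSome, 2 to the chaperonin-like BBS proteins, 7 to the MKS module and 2 to the NPHP module. Arl13b, also spelled out by the rule, is given to no probe set by the platform table used here.

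All samples came from adult TCF/Lef:H2B/GFP mice aged 8 to 12 weeks, in which a nuclear green fluorescent protein is placed under TCF/Lef sites, so that fluorescence stands in for beta-catenin dependent transcription and not for any cell type. Distal lungs were dissociated with dispase, and CD31+ and CD45+ cells were depleted before live EpCAM+ cells were sorted into a GFP high gate (Wnt-high), a GFP low gate (Wnt-low) and a GFP negative gate (Wnt-negative). Each sample pooled 3 to 4 animals, and 8 ng of RNA was amplified for an Affymetrix whole-transcript array. There were 6 arrays a group: Wnt-high from experiments 2, 4, 5, 7, 8 and 9, and both Wnt-low and Wnt-negative from experiments 3, 4, 5, 7, 8 and 9. The reporter is the only allele named, all groups carry it, and no agent is named.

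A cilium is built and kept by trains that run along its microtubules under the membrane. In the train, IFT-B links to the kinesin-2 motor (Kif3a and Kif3b) for the way out, and IFT-A works with the dynein-2 motor (Dync2h1 and Dync2li1) on the way back. The BBSome is a cargo adaptor for membrane proteins, and the MKS and NPHP modules form the transition zone, the gate at the cilium base. Nearly every vertebrate cell type can grow a single primary cilium with these genes, while multiciliated cells of the airway carry many motile cilia on each cell.

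No label names a run. From the decimals of their values the arrays were treated as 2 runs normalized apart. These were experiments 2 to 5 (called the earlier run) and experiments 7 to 9 (called the later run). Array medians were 4.62 to 4.77 and 3.55 to 3.69 on the deposited log2 scale. Each run held 3 arrays of each group, and the run was a block in the tests unless another setting is named. Deposited values reached 19.93, more than the 16 that a 16-bit scanner allows in log2, so differences are given on the deposited log2 scale and not as ratios of RNA. Background was read from 23 control probe sets, whose 95th percentile lay between 4.57 and 5.17 on the arrays. Where all arrays of a group in a run lay at or below it, a difference is also given as a lower limit ("at least"), with the background in place of the low values. Among 12 measured ciliated cell markers the mean level was 14.71 to 15.25 on Wnt-high arrays, 9.71 to 14.24 on Wnt-low arrays and 4.91 to 7.96 on Wnt-negative arrays.

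Nearly all of the 37 genes were highest in Wnt-high cells, intermediate in Wnt-low cells and lowest in Wnt-negative cells. Against Wnt-negative cells, 36 were higher in Wnt-high cells and 1, Ift20, was lower (limma, Benjamini-Hochberg adjusted p under 0.05). Over all 30145 genes, 15.6% were called higher and 24.6% lower in that comparison. The median difference was 3.05 for the members and -0.05 for all genes. Adjusted p-values of the 36 ran from 4.39e-09 to 0.0434, the last of them for Bbs10. In 35 members every Wnt-high array lay above every Wnt-negative array within both runs, which 12.9% of all genes did. In bulk RNA of sorted pools, fewer cells of a type and less RNA per cell cannot be told apart.

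Wnt-low cells stood between the other groups. Against Wnt-negative cells, 32 members were higher in Wnt-low cells, Ift20 was lower and 4 did not pass, with 12.3% of all genes higher and 13.2% lower. The 4 were Dync2li1 at 0.74 (adjusted p = 0.116), Bbs10 at -0.05 (0.772), B9d2 (fitted 0.38, 0.079) and Tctn3 (fitted 0.46, 0.057). With the background in place of its later Wnt-negative values B9d2 was at 0.16. That is no lower limit, since B9d2 was above background on only 1 of the 3 later Wnt-low arrays. Tctn3 was at background in both groups of the later run, and in the earlier run alone it differed by 0.66. The median member difference was 1.12 (1.05 with background as the floor), against -0.03 for all genes. Without the run as a block 10 members were higher (2.79% of all genes), and within the earlier run alone 7 (4.74%). In 27 members the Wnt-low arrays lay above the Wnt-negative arrays within both runs (8.98% of all genes).

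Wnt-high cells exceeded Wnt-low cells in 36 members, with 11.4% of all genes higher and 16.4% lower. No member was lower in Wnt-high cells (limma, adjusted p), while at an unadjusted p under 0.05 Ift20 was, at -0.21 (adjusted p = 0.0821). The median member difference was 2.11, against -0.01 for all genes. By complex the medians were 2.22 for IFT-B, 2.01 for IFT-A, 2.19 for the motors, 2.16 for the BBSome, 0.71 for the BBS chaperonins, 1.56 for the MKS module and 2.50 for the NPHP module. In 34 members Wnt-high arrays lay above Wnt-low arrays within both runs (8.04% of all genes), and in 0 below (10.3%). Without the run as a block 23 members passed (2.39% of all genes), and within the earlier run alone 23 (4.8%). The Wnt-high against Wnt-negative count was 34 without the run block (4.89% of all genes), with B9d2 and Bbs10 lost, and 35 in the earlier run alone (12.2%). Members passing both steps, Wnt-high over Wnt-low and Wnt-low over Wnt-negative, numbered 32, and 4.89% of all genes did so. In all 5 experiments that supplied the 3 groups, 30 members had the order Wnt-high, Wnt-low, Wnt-negative (5.2% of all genes). The other 7 were Ift20, which had it in 0 of 5, Bbs10 and Dync2li1 in 3 of 5, and Bbs12, Ift81, Tctn1 and Tctn3 in 4 of 5.

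**Figure D1:**
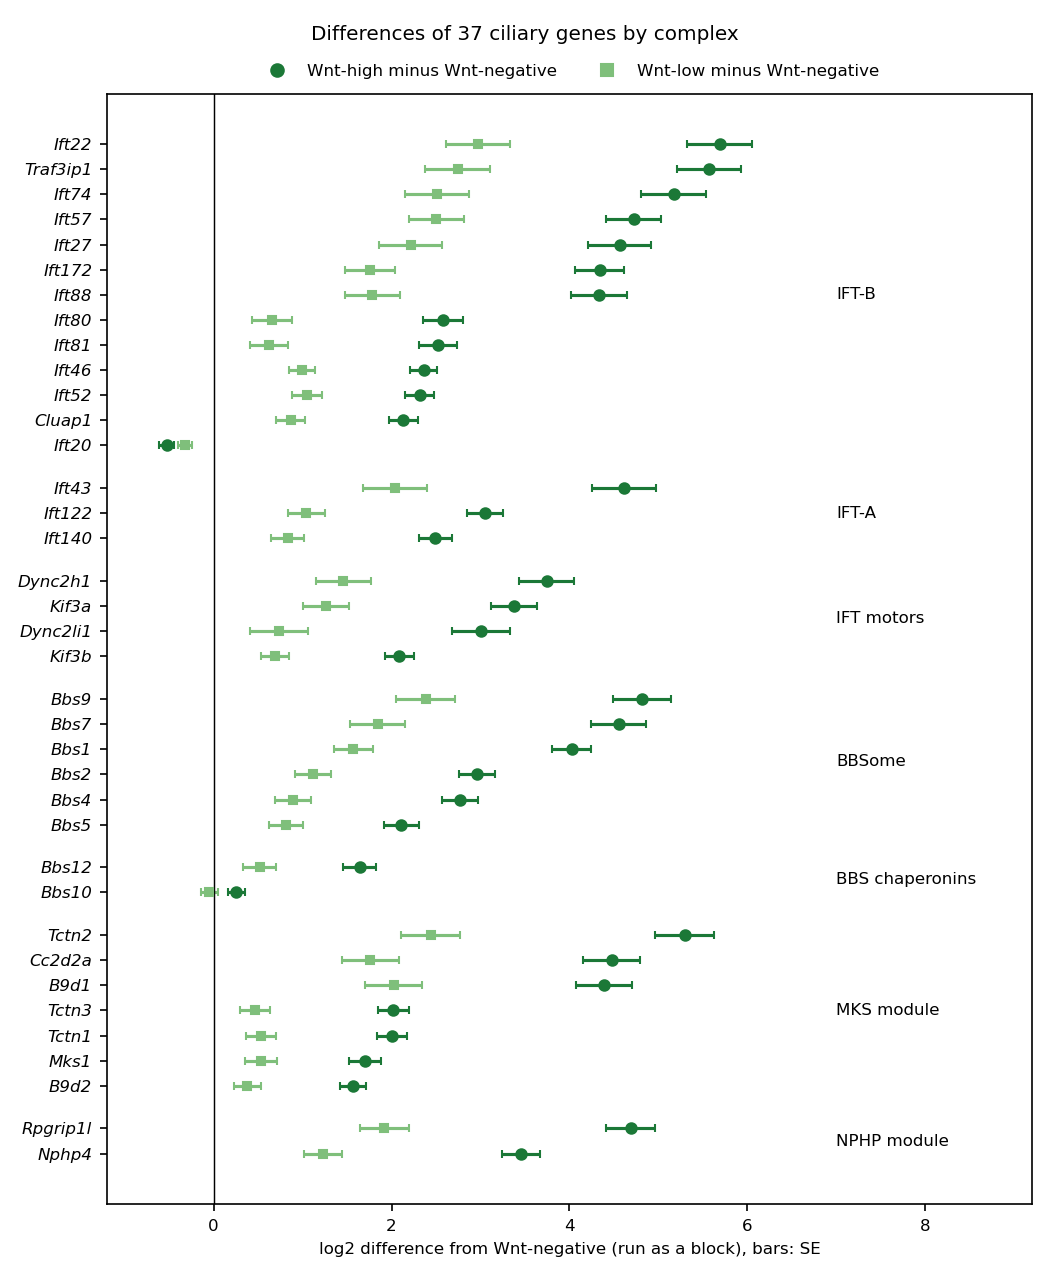
Log2 differences of the 37 genes from Wnt-negative cells, with the run as a block, grouped by complex; circles are Wnt-high minus Wnt-negative, squares Wnt-low minus Wnt-negative, and bars are SE over 18 arrays. Circles lie to the right of squares for 36 genes, Ift20 lies left of 0 in both comparisons, and Bbs10 lies close to 0.

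Promoters are shown because most of these genes moved together, and because in animals RFX factors are known to bind an X-box at many ciliary genes. RefSeq (GRCm38.p6) gave a window of 250 bases before to 50 after the start for 33 of 37 members. The X-box was searched as a palindrome of RFX sites of 6 bases with up to 3 bases between them, and the single site as GTTGCC, each on either strand, and an X-box can contain the single site. An X-box was found in 7 of 33 members (21.2%), against 534 of 17491 protein-coding genes (3.05%). The single site was found in 18 of 33 members (54.5%), against 2510 of 17491 (14.4%). X-boxes lay in the windows of B9d2, Bbs1, Dync2h1, Ift57, Tctn1, Tctn2 and Tctn3. Single sites without an X-box lay before the start of Traf3ip1, Kif3a, Bbs7, Mks1, Ift27 and Ift140. Of these only Traf3ip1 and Kif3a are printed, as examples. X-boxes before the start are printed in capitals with 15 bases on each side, 5′ to 3′ on the gene's strand. Traf3ip1 and Kif3a follow with the single site in capitals.
Tctn2 (chr5:124598672-124598715, plus strand): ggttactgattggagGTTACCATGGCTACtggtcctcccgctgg
Ift57, upstream box (chr16:49699192-49699235, plus strand): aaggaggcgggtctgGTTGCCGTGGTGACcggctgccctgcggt
Ift57, downstream box (chr16:49699219-49699261, plus strand): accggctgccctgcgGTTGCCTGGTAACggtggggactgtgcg
Tctn3 (chr19:40612344-40612386, minus strand): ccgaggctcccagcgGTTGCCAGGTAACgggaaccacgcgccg
Traf3ip1 (chr1:91494574-91494609, plus strand): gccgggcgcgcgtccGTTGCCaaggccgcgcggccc
Kif3a (chr11:53567256-53567291, plus strand): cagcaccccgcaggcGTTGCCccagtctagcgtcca
The first base of the box lay 62 bases before the start of Tctn2, 87 and 60 bases before that of Ift57 and 140 bases before that of Tctn3. The median Wnt-high minus Wnt-negative difference was 3.74 for the 7 members with an X-box (1.57 to 5.30) and 3.42 for the 26 without one (-0.53 to 5.69). For the single site it was 3.884 for the 18 members with it (1.57 to 5.57) and 2.775 for the 15 without it (-0.53 to 5.69). Neither contrast was tested. A match is a run of letters and was not tested for binding. The windows of 15 members held neither run of letters. Among them were Ift20 and Bbs10, but also Ift22, which had the largest difference of all members (5.69).

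IFT-B is the larger complex of the IFT train, and 12 of its 13 members were higher in Wnt-high cells than in Wnt-negative ones, with a median of 4.33 over the 13. Values are given below as deposited log2 values in order of experiment, 2, 4 and 5 for Wnt-high and 3, 4 and 5 for the other groups in the earlier run, and 7, 8 and 9 in the later run. Ift22, a Rab-like small GTPase of the train, had 14.81, 14.54 and 14.82 in Wnt-high cells, 13.75, 11.44 and 12.91 in Wnt-low cells and 9.98, 9.69 and 9.64 in Wnt-negative cells in the earlier run. Ift22 values in the later run were 14.56, 14.84 and 14.66 in Wnt-high cells, 10.73, 12.13 and 10.98 in Wnt-low cells and 8.39, 8.11 and 8.28 in Wnt-negative cells. The 3 groups did not overlap in either run, and Wnt-low arrays were the most spread. For Ift22 the Wnt-high minus Wnt-negative difference was 5.69 (SE 0.36, adjusted p = 7.07e-09), the top value among the members, with 4.95 in the earlier run and 6.43 in the later one. Wnt-low minus Wnt-negative was 2.97 for the same gene (adjusted p = 2.52e-05).

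Ift88, whose loss in mice gives short or missing cilia, had 11.63, 10.91 and 11.40 in Wnt-high cells, 10.27, 7.55 and 9.22 in Wnt-low cells and 7.28, 6.81 and 7.15 in Wnt-negative cells in the earlier run. Ift88 values in the later run were 10.15, 10.27 and 9.91 in Wnt-high cells, 7.19, 7.48 and 7.28 in Wnt-low cells and 5.43, 5.90 and 5.70 in Wnt-negative cells. Again the groups were apart in both runs, although the Wnt-low array of experiment 4 came close to the Wnt-negative arrays. Its difference was 4.33 for Wnt-high minus Wnt-negative (SE 0.31, adjusted p = 1.75e-08) and 1.79 for Wnt-low minus Wnt-negative (SE 0.31, adjusted p = 4.90e-04).

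The remaining IFT-B members that rose fell into a high and a low range. Traf3ip1 (IFT54) was at 5.57, Ift74 at 5.17, Ift57 at 4.72, Ift27 at 4.57 and Ift172 at 4.34 for Wnt-high minus Wnt-negative. Ift80 was at 2.58, Ift81 at 2.52, Ift46 at 2.36, Ift52 at 2.32 and Cluap1 (IFT38) at 2.13. Ift74 and Ift81, which pair with each other in the train, thus differed by different amounts on this scale. Ift74 ranged over 13.29 to 13.81 in Wnt-high cells, 10.19 to 12.92 in Wnt-low cells and 8.64 to 9.00 in Wnt-negative cells in the earlier run. Ift81 ranged over 10.75 to 11.39 in Wnt-high cells, 8.52 to 10.18 in Wnt-low cells and 8.52 to 8.76 in Wnt-negative cells in the same run. The groups of Ift74 were apart, while for Ift81 a Wnt-low array, that of experiment 4, lay among the Wnt-negative ones. Wnt-high arrays lay above Wnt-negative arrays within both runs for all 10 of them. In the same 10 genes Wnt-low minus Wnt-negative ran between 0.62 for Ift81 and 2.74 for Traf3ip1, and all 10 passed. The calls of the lowest of them were not stable: that of Ift80 was lost without experiment 2, 5, 8 or 9 (adjusted p = 0.0502 to 0.111) and that of Ift81 without experiment 2, 3, 5, 7, 8 or 9 (adjusted p = 0.0529 to 0.146).

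Ift20, the IFT-B subunit that in mammalian cells also sits at the Golgi, ran the other way. Ift20 had 14.37, 14.40 and 14.28 in Wnt-high cells, 14.50, 14.60 and 14.51 in Wnt-low cells and 14.70, 14.84 and 14.85 in Wnt-negative cells in the earlier run. In the later run Ift20 stood at 12.58, 12.77 and 13.04 in Wnt-high cells, 12.80, 13.30 and 12.96 in Wnt-low cells and 13.41, 13.51 and 13.30 in Wnt-negative cells. In the earlier run the groups did not overlap, with Wnt-negative highest, and in the later run Wnt-high stayed below Wnt-negative while Wnt-low overlapped Wnt-high and met Wnt-negative at 13.30. The Wnt-high minus Wnt-negative difference was -0.53 (SE 0.08, adjusted p = 6.75e-05), with -0.45 and -0.61 in the earlier and later run. After quantile normalization over all arrays it was -0.31 (adjusted p = 0.00109), and without the run as a block its adjusted p was 0.998. Of all genes, 17.8% lay lower in Wnt-high cells than in Wnt-negative ones without overlap in both runs. The Wnt-low minus Wnt-negative difference was -0.32 (adjusted p = 0.00864), and that call was lost when each array was centred on its median (-0.25, adjusted p = 0.0597). No other gene overlaps Ift20 in the RefSeq table.

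**Figure D2:**
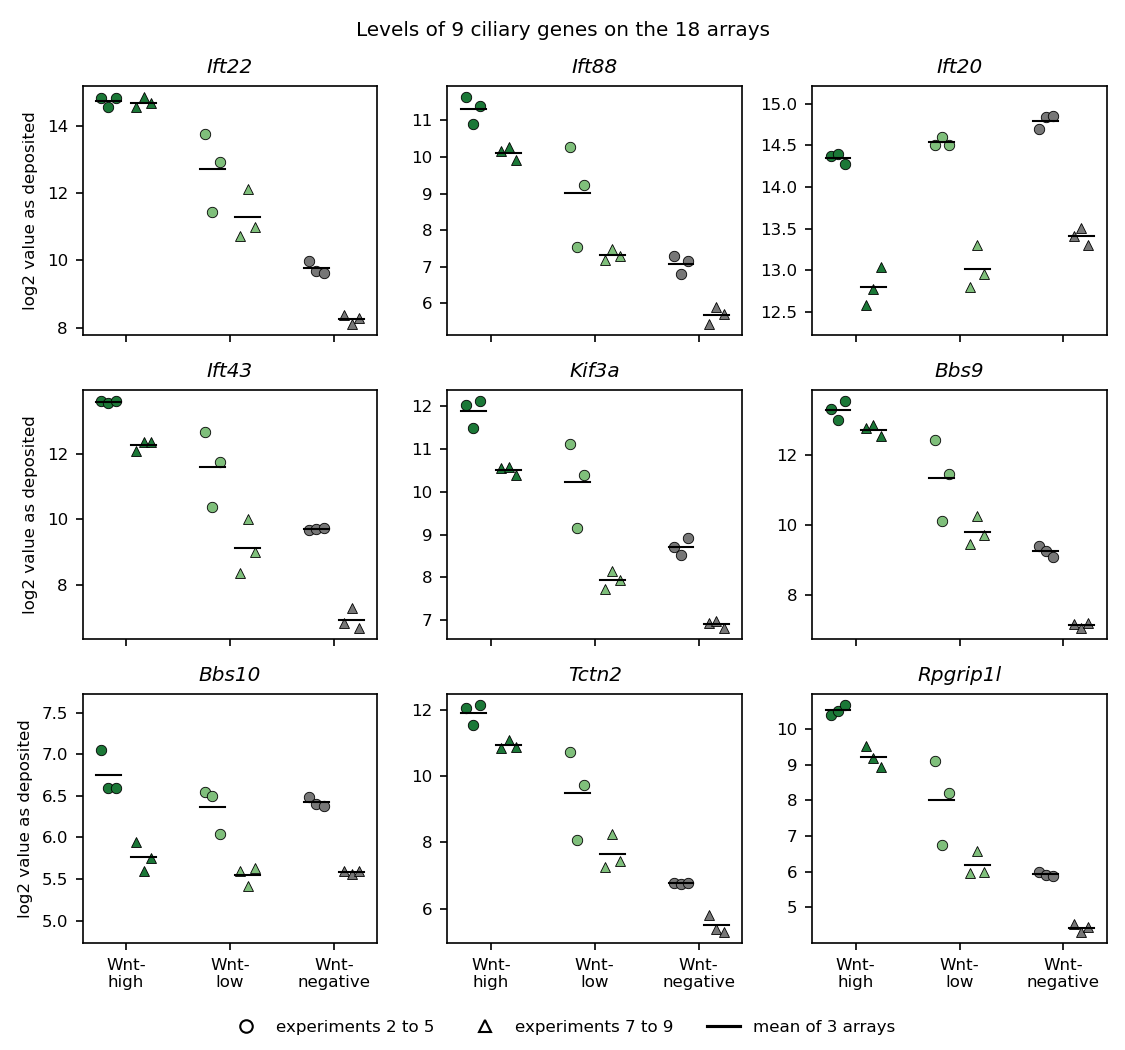
Deposited log2 values of 9 of the 37 genes on each array, by group; circles are experiments 2 to 5, triangles experiments 7 to 9, and lines are means of 3 arrays. Each vertical axis has its own range. Groups are stepped down from Wnt-high to Wnt-negative in Ift22, Ift88, Ift43, Kif3a, Bbs9, Tctn2 and Rpgrip1l, stepped up in Ift20, and overlapping in Bbs10.

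All 3 IFT-A members, parts of the complex for return transport, were higher in Wnt-high cells than in Wnt-negative ones, with a median of 3.05. Ift43, a small subunit, had 13.61, 13.56 and 13.60 in Wnt-high cells, 12.67, 10.36 and 11.74 in Wnt-low cells and 9.66, 9.71 and 9.72 in Wnt-negative cells in the earlier run. Ift43 values in the later run were 12.08, 12.37 and 12.37 in Wnt-high cells, 8.36, 10.01 and 8.99 in Wnt-low cells and 6.84, 7.29 and 6.68 in Wnt-negative cells. Its groups stayed apart in both runs, and the Wnt-high arrays lay within 0.30 of each other in each run. Ift43 differed by 4.61 between Wnt-high and Wnt-negative cells (SE 0.36, adjusted p = 3.90e-08).

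Ift140, a large IFT-A scaffold, had 8.35, 8.14 and 8.47 in Wnt-high cells, 7.30, 5.75 and 6.79 in Wnt-low cells and 5.70, 5.54 and 5.49 in Wnt-negative cells in the earlier run. Ift140 values in the later run were 6.64, 6.60 and 6.51 in Wnt-high cells, 4.98, 5.00 and 4.93 in Wnt-low cells and 4.25, 4.40 and 4.37 in Wnt-negative cells. The groups did not overlap, but the Wnt-negative arrays of the later run were not above background. Its Wnt-high minus Wnt-negative difference was therefore at least 2.26 (fitted 2.49, SE 0.18, adjusted p = 2.18e-08). Ift122, another scaffold, lay between them at 3.05. Over Wnt-negative cells, Wnt-low cells were higher in Ift43 (2.04), Ift122 (1.04) and Ift140 (at least 0.60).

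The 4 motor genes were all higher in Wnt-high cells than in Wnt-negative ones, with a median of 3.19. Kif3a, a motor subunit of kinesin-2, had 12.04, 11.48 and 12.12 in Wnt-high cells, 11.12, 9.15 and 10.40 in Wnt-low cells and 8.72, 8.52 and 8.91 in Wnt-negative cells in the earlier run. Kif3a values in the later run were 10.55, 10.57 and 10.39 in Wnt-high cells, 7.73, 8.14 and 7.93 in Wnt-low cells and 6.93, 6.99 and 6.82 in Wnt-negative cells. No groups overlapped in either run. The difference of Kif3a was 3.38 (SE 0.26, adjusted p = 2.89e-08) for Wnt-high minus Wnt-negative and 1.26 for Wnt-low minus Wnt-negative (adjusted p = 0.00161).

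Kif3b, its partner subunit, had 9.66, 9.55 and 9.43 in Wnt-high cells, 8.88, 7.50 and 8.21 in Wnt-low cells and 7.53, 7.27 and 7.16 in Wnt-negative cells in the earlier run. Kif3b values in the later run were 8.21, 8.30 and 8.21 in Wnt-high cells, 6.84, 6.82 and 6.71 in Wnt-low cells and 6.34, 6.34 and 6.18 in Wnt-negative cells. Wnt-high arrays stood apart in both runs, and in the earlier run the Wnt-low array of experiment 4 fell among the Wnt-negative arrays. Kif3b differed by 2.09 between Wnt-high and Wnt-negative cells (SE 0.16, adjusted p = 3.26e-08).

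Dync2h1, the heavy chain of the return motor, had 10.06, 9.72 and 9.34 in Wnt-high cells, 8.93, 6.21 and 7.78 in Wnt-low cells and 6.25, 6.08 and 5.78 in Wnt-negative cells in the earlier run. Dync2h1 values in the later run were 8.64, 8.51 and 8.39 in Wnt-high cells, 5.92, 6.19 and 5.91 in Wnt-low cells and 4.49, 4.88 and 4.71 in Wnt-negative cells. Wnt-high arrays were again apart, one Wnt-low array lay among the Wnt-negative ones in the earlier run, and the later Wnt-negative arrays were not above background. The difference was at least 3.69 for Wnt-high minus Wnt-negative (fitted 3.74, SE 0.31, adjusted p = 6.54e-08). Dync2li1, its light intermediate chain, differed by 3.00 between Wnt-high and Wnt-negative cells (adjusted p = 1.28e-06) and by 2.27 between Wnt-high and Wnt-low cells (adjusted p = 5.19e-05).

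All 6 measured BBSome subunits were higher in Wnt-high cells than in Wnt-negative ones, with a median of 3.49, and all 6 were also higher in Wnt-low cells, with a median of 1.35. The Wnt-low calls of Bbs1, Bbs2, Bbs4 and Bbs5 were lost without the run as a block. In the earlier run alone those of Bbs2, Bbs5 and Bbs9 were lost, and that of Bbs4 in each run alone (limma, adjusted p = 0.0988 and 0.0758). Bbs9 had 13.31, 13.01 and 13.54 in Wnt-high cells, 12.42, 10.12 and 11.47 in Wnt-low cells and 9.39, 9.26 and 9.08 in Wnt-negative cells in the earlier run. Bbs9 values in the later run were 12.77, 12.85 and 12.55 in Wnt-high cells, 9.47, 10.25 and 9.72 in Wnt-low cells and 7.17, 7.06 and 7.20 in Wnt-negative cells. The 3 groups were separate in both runs. For Bbs9 the Wnt-high minus Wnt-negative difference was 4.81 (SE 0.33, adjusted p = 1.07e-08).

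Bbs1, the subunit whose gene is among those most often mutated in human Bardet-Biedl syndrome, had 10.55, 9.94 and 10.48 in Wnt-high cells, 9.08, 7.32 and 8.17 in Wnt-low cells and 6.41, 6.27 and 6.56 in Wnt-negative cells in the earlier run. Bbs1 values in the later run were 9.29, 9.30 and 9.31 in Wnt-high cells, 6.36, 6.82 and 6.39 in Wnt-low cells and 5.22, 5.04 and 5.23 in Wnt-negative cells. Groups were separate, and the Wnt-high arrays of the later run lay between 9.29 and 9.31. Bbs1 differed by 4.02 (SE 0.22) with the smallest adjusted p of the members, 4.39e-09.

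Bbs5, which binds membrane lipids, had 8.58, 8.01 and 8.54 in Wnt-high cells, 7.44, 6.23 and 7.06 in Wnt-low cells and 5.90, 5.80 and 5.86 in Wnt-negative cells in the earlier run. Bbs5 values in the later run were 6.23, 6.43 and 6.60 in Wnt-high cells, 5.34, 5.39 and 5.14 in Wnt-low cells and 4.95, 4.78 and 4.43 in Wnt-negative cells. Its groups did not overlap either. The difference of Bbs5 was 2.11 for Wnt-high minus Wnt-negative, the lowest of the BBSome (SE 0.19, adjusted p = 2.06e-07). Bbs7 differed by 4.55, Bbs2 by 2.96 and Bbs4 by 2.77 in the same comparison.

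The chaperonin-like proteins Bbs10 and Bbs12, which help to assemble the BBSome, moved less. Bbs12 had 7.42, 7.24 and 7.81 in Wnt-high cells, 6.52, 5.84 and 6.49 in Wnt-low cells and 5.93, 5.56 and 5.68 in Wnt-negative cells in the earlier run. Bbs12 values in the later run were 6.27, 6.11 and 5.48 in Wnt-high cells, 4.73, 5.55 and 4.46 in Wnt-low cells and 4.35, 4.46 and 4.49 in Wnt-negative cells. Wnt-high and Wnt-negative arrays did not overlap, while Wnt-low overlapped Wnt-negative in both runs and Wnt-high in the later one. The later Wnt-negative arrays were at background, so the Wnt-high minus Wnt-negative difference was at least 1.46 (fitted 1.65, SE 0.18, adjusted p = 1.90e-06). Wnt-low minus Wnt-negative was 0.52 as fitted (adjusted p = 0.0494), and 0.34 with the background in place of the later Wnt-negative values. The 0.34 is no lower limit, since Bbs12 was above background on only 1 of the 3 later Wnt-low arrays. The call was lost without experiment 2, 3, 5, 7 or 8 (adjusted p = 0.0598 to 0.146).

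Bbs10 had 7.05, 6.60 and 6.60 in Wnt-high cells, 6.55, 6.50 and 6.04 in Wnt-low cells and 6.49, 6.40 and 6.38 in Wnt-negative cells in the earlier run. Bbs10 values in the later run were 5.94, 5.60 and 5.75 in Wnt-high cells, 5.60, 5.41 and 5.63 in Wnt-low cells and 5.59, 5.56 and 5.60 in Wnt-negative cells. In the earlier run every Wnt-high array lay above both other groups, the lowest at 6.60 and the highest of the others at 6.55. The groups overlapped or met in the later run. The Wnt-high minus Wnt-negative difference of 0.26 passed (SE 0.10, adjusted p = 0.0434), but not in either run alone (adjusted p = 0.195 and 0.228). It also failed without the array set of experiment 2, 3, 4, 7 or 9, with adjusted p-values from 0.0547 to 0.12. Wnt-low minus Wnt-negative was -0.05, and its sign was not kept under other scalings (0.03 with arrays centred on their medians).

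At the transition zone, all 7 MKS module members were higher in Wnt-high cells than in Wnt-negative ones, with a median of 2.02. Tctn2, a tectonic of the gate complex and one of the genes with an X-box printed above, had 12.06, 11.53 and 12.15 in Wnt-high cells, 10.72, 8.07 and 9.72 in Wnt-low cells and 6.77, 6.74 and 6.79 in Wnt-negative cells in the earlier run. Tctn2 values in the later run were 10.86, 11.08 and 10.89 in Wnt-high cells, 7.26, 8.27 and 7.43 in Wnt-low cells and 5.81, 5.40 and 5.31 in Wnt-negative cells. All groups were separate, and the earlier Wnt-negative arrays lay between 6.74 and 6.79. For Tctn2 the Wnt-high minus Wnt-negative difference was 5.30 (SE 0.33, adjusted p = 6.79e-09).

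Tctn1, a tectonic of the same complex, had 8.56, 7.96 and 8.76 in Wnt-high cells, 6.97, 6.09 and 7.13 in Wnt-low cells and 6.32, 6.25 and 6.34 in Wnt-negative cells in the earlier run. Tctn1 values in the later run were 7.09, 6.86 and 6.71 in Wnt-high cells, 5.66, 5.68 and 5.54 in Wnt-low cells and 4.74, 5.12 and 5.15 in Wnt-negative cells. Wnt-high was apart in both runs, and the Wnt-low array of experiment 4 lay below every Wnt-negative array of its run. Tctn1 differed by 2.00 between Wnt-high and Wnt-negative cells (SE 0.17, adjusted p = 8.70e-08). Wnt-low minus Wnt-negative was 0.53 (adjusted p = 0.0303), a call lost without experiment 3, 5, 7, 8 or 9 (adjusted p = 0.0615 to 0.131).

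B9d2, a B9-domain protein of the MKS module, had 7.64, 7.45 and 7.98 in Wnt-high cells, 6.78, 6.36 and 6.69 in Wnt-low cells and 6.12, 6.30 and 6.59 in Wnt-negative cells in the earlier run. B9d2 values in the later run were 5.78, 6.20 and 6.42 in Wnt-high cells, 4.73, 5.16 and 4.65 in Wnt-low cells and 4.14, 4.71 and 4.22 in Wnt-negative cells. Wnt-high was again apart from both, and Wnt-low overlapped Wnt-negative in both runs. Since the later Wnt-negative arrays were at background, the difference was at least 1.34 for Wnt-high minus Wnt-negative (fitted 1.57, SE 0.15, adjusted p = 3.53e-07). Cc2d2a differed by 4.48 and B9d1 by 4.39, close to Tctn2. Cc2d2a, a membrane-linked scaffold of the gate, ranged over 12.53 to 13.00 in Wnt-high cells, 9.37 to 11.73 in Wnt-low cells and 8.67 to 8.95 in Wnt-negative cells in the earlier run, and its groups did not overlap. Tctn3, with at least 1.50, and Mks1, with at least 1.50, were in the range of Tctn1. Mks1 was at background in both Wnt-low and Wnt-negative cells of the later run, so their difference rests on the earlier run, where it was 0.73 (adjusted p = 0.182 in that run alone). Over both runs the fitted Wnt-low minus Wnt-negative difference of Mks1 was 0.53 (adjusted p = 0.0381), a call lost without experiment 3, 7, 8 or 9 (adjusted p = 0.0585 to 0.165).

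Both NPHP module members, which sit next to the MKS proteins in the transition zone, were higher in Wnt-high cells than in Wnt-negative ones. Rpgrip1l, a scaffold there, had 10.40, 10.50 and 10.67 in Wnt-high cells, 9.09, 6.76 and 8.20 in Wnt-low cells and 6.00, 5.91 and 5.88 in Wnt-negative cells in the earlier run. Rpgrip1l values in the later run were 9.53, 9.17 and 8.93 in Wnt-high cells, 5.97, 6.57 and 6.00 in Wnt-low cells and 4.53, 4.32 and 4.44 in Wnt-negative cells. The groups were separate, and the later Wnt-negative arrays were at background. Its difference was at least 4.50 (fitted 4.69, SE 0.27, adjusted p = 5.59e-09).

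Nphp4 had 8.73, 8.68 and 9.12 in Wnt-high cells, 7.48, 5.85 and 6.93 in Wnt-low cells and 5.24, 5.23 and 5.30 in Wnt-negative cells in the earlier run. Nphp4 values in the later run were 7.36, 7.92 and 7.28 in Wnt-high cells, 5.06, 5.45 and 4.99 in Wnt-low cells and 4.27, 3.95 and 4.37 in Wnt-negative cells. Its groups were also separate, with the later Wnt-negative arrays at background. Nphp4 differed by at least 3.15 (fitted 3.46, SE 0.22, adjusted p = 6.47e-09). Nphp4, Ift140, Ift74, Ift122, Tctn1, Dync2h1 and Cluap1 overlap another protein-coding gene in the RefSeq table, and the strand their probes read was not examined here.

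Detection differed from size of change. In the earlier run all 37 members were above background on all arrays of every group. In the later run all 37 were on the 3 Wnt-high arrays, 33 on the 3 Wnt-low arrays and 27 on the 3 Wnt-negative arrays. B9d2, Bbs12, Dync2h1, Ift140, Mks1, Nphp4, Rpgrip1l and Tctn3 were above it on none of the later Wnt-negative arrays, and Mks1 and Tctn3 on none of the later Wnt-low arrays. B9d1 and Bbs5 were above it on 1 of the 3 later Wnt-negative arrays, and B9d2 and Bbs12 on 1 of the 3 later Wnt-low arrays. The differences of B9d1 and Bbs5 are given without a floor. Of the 24 measured motile axoneme genes, 24 were above background on the 3 later Wnt-high arrays and 2 on the 3 later Wnt-negative arrays.

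The position of Wnt-low cells was expressed as the share of the Wnt-high minus Wnt-negative difference they reached, for the 35 members with a difference of at least 1. In the earlier run the median share was 45.4%, with a range of 20% to 59.1%. In the later run it was 33.6%, between 14.4% and 50.8%, with 8 of the 35 at background in Wnt-negative cells, among them Tctn3 with the 14.4%. The 27 others had a median of 35.4%, between 15.1% for Ift80 and 50.8%. The difference between the runs was examined gene by gene as an interaction in limma. No gene of 30145 passed after adjustment in any of the 3 comparisons. At an unadjusted p under 0.05, 5 members differed between runs in Wnt-high against Wnt-negative (Bbs5, Bbs9, Ift22, Ift43 and Mks1), 0 for Wnt-low against Wnt-negative and 3 for Wnt-high against Wnt-low (Bbs7, Dync2li1 and Ift22). The same threshold held 6.44%, 5.83% and 7.24% of all genes.

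Wnt-low arrays varied most. The median SD within a run over the 37 members was 0.22 for Wnt-high arrays, 0.65 for Wnt-low arrays and 0.16 for Wnt-negative arrays. The Wnt-low array of experiment 4 lay below that of experiment 3 by a median of 1.67 over the members, in 36 of 37, while the median of all genes differed by 0.00. Ciliated cell markers moved with it: their median was 3.91 lower on the same array, and that of the axoneme genes 3.72 lower. Between Wnt-low arrays of experiments 8 and 7 the members differed by a median of 0.43 and the ciliated cell markers by 2.45. The part of ciliated cells in the members' spread was not tested. Without the Wnt-low arrays of experiments 3 and 4, 32 members were higher in Wnt-low than in Wnt-negative cells and 36 higher in Wnt-high cells than in Wnt-low ones.

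**Figure D3:**
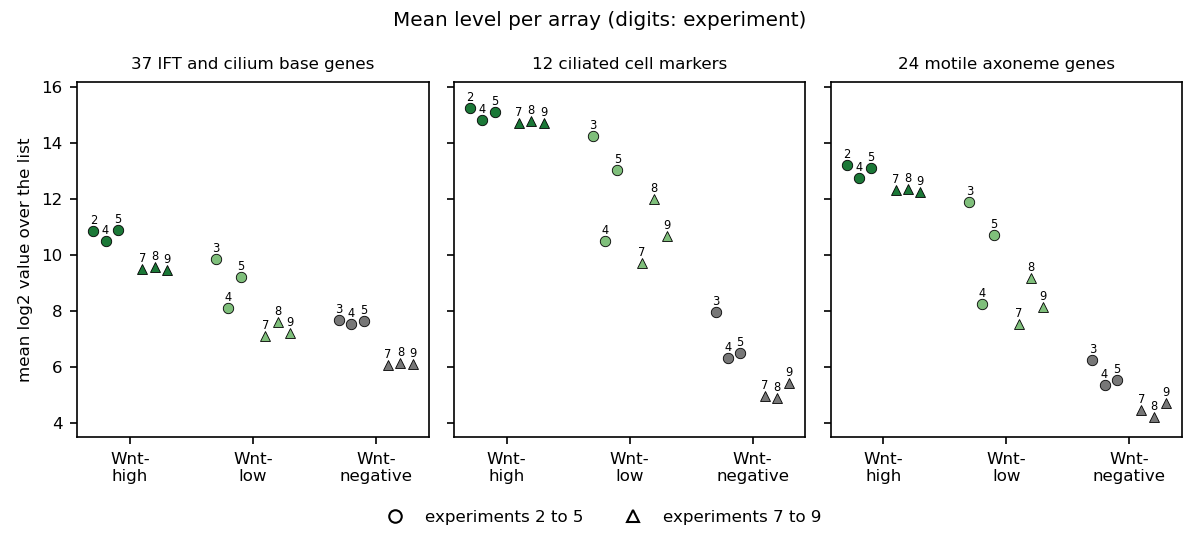
Mean log2 value per array over the 37 IFT and cilium base genes, 12 ciliated cell markers and 24 motile axoneme genes, by group; circles are experiments 2 to 5, triangles experiments 7 to 9, and digits give the experiment. Among the Wnt-low arrays of the earlier run, that of experiment 3 is the highest and that of experiment 4 the lowest in all 3 panels, and among those of the later run, experiment 8 is the highest and experiment 7 the lowest.

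Other genes of the same machinery were read as lists. Subunits of the same complexes with other symbols numbered 31 measured of 35, of which 27 were higher and 2 lower in Wnt-high cells than in Wnt-negative ones, with a median of 2.55. Dynlrb2, a dynein light chain, was at 7.05 (adjusted p = 2.13e-08) and Wdr19 (IFT144, of IFT-A) at 5.33 (adjusted p = 8.44e-09). Ttc21b (IFT139, also of IFT-A) was at -0.52 (SE 0.11, adjusted p = 9.93e-04) and Anks6 at -0.42 (adjusted p = 1.33e-04). Anks6 was at background in all 3 groups of the later run and differed by -0.52 in the earlier one. Ttc21b differed by -0.69 in the earlier run and by -0.34 in the later one, and without the run as a block its adjusted p was 1. It thus ran with Ift20 and against Wdr19 and the other IFT-A members. Against Wnt-negative cells, 23 of the 31 were higher in Wnt-low cells and 1 lower, with a median of 0.96.

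Distal appendage and basal body genes, which anchor the cilium to the membrane, changed to a smaller extent: 16 of 18 were higher in Wnt-high cells than in Wnt-negative ones and 1 lower, with a median of 1.79. Cep83, a distal appendage protein, was at 5.35 (adjusted p = 1.04e-08) and Cetn2, a centrin, at 3.21 (adjusted p = 3.42e-08). Ofd1 was at -0.51 (adjusted p = 0.00166) and Poc1a at 0.08 (adjusted p = 0.423).

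Motile axoneme genes, which primary cilia mostly lack, differed by more on this scale. All 24 measured of 30 were higher in Wnt-high cells than in Wnt-negative ones, with a median of 8.18 (7.81 with background as the floor). The radial spoke proteins Rsph4a and Rsph1 were at 10.55 and 10.10. At the other end of the list, Ccdc114 was at 4.09 and Meig1 at 1.72 or more (fitted 2.12). Of the measured axoneme genes, Rsph1, Dnah5 and Ccdc39 are also among the measured ciliated cell markers. The difference between this list and the 37 genes was not tested.

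**Figure D4:**
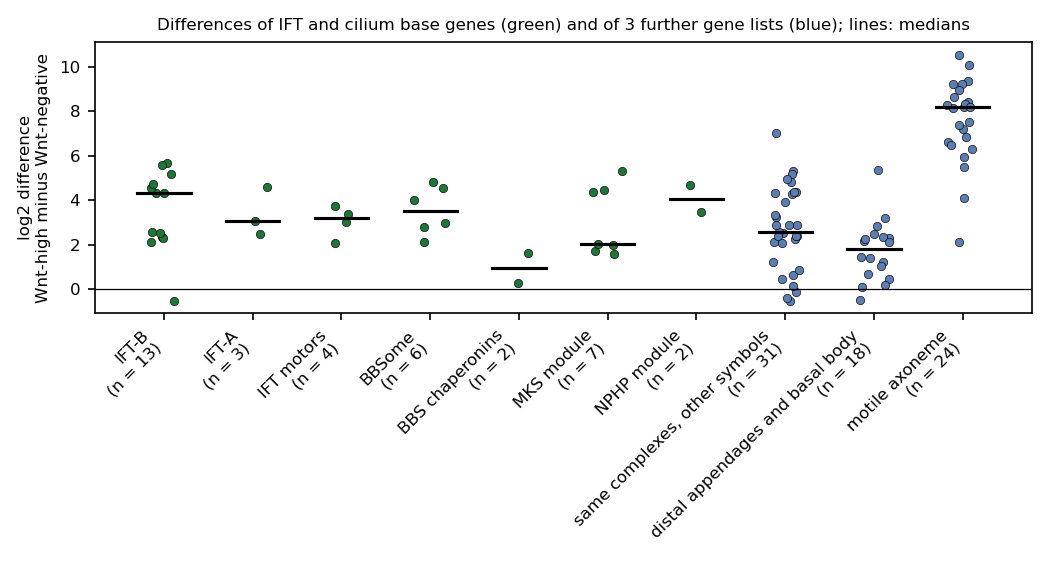
Wnt-high minus Wnt-negative log2 differences by complex for the 37 genes (green) and for 3 further lists (blue); points are genes and lines medians. The medians are 4.33 for IFT-B, 0.95 for the BBS chaperonins, 2.02 for the MKS module, 2.55 for other subunits of the same complexes, 1.79 for distal appendages and basal body and 8.18 for the motile axoneme.

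Of 13 measured regulators of multiciliated cells and RFX factors, 7 were higher and 1 lower in Wnt-high cells than in Wnt-negative ones. Rfx2 averaged 9.91 ± 0.61 in Wnt-high cells, 7.57 ± 0.78 in Wnt-low cells and 6.58 ± 0.63 in Wnt-negative cells (SD, n = 6 each), a Wnt-high minus Wnt-negative difference of 3.33 (SE 0.22, adjusted p = 7.85e-09). Rfx3 differed by 3.31 (SE 0.20, adjusted p = 5.70e-09), Trp73 by at least 4.37 and Myb by at least 5.78. E2f5 was at 0.81, Rfx1 at 0.51, Foxn4 at 0.31 and Rfx4 at -0.10, both of these 2 at or near background. Not passing in that comparison were Mcidas (0.19), Cdc20b (0.29), Ccno (-0.33), Rfx5 (0.10) and E2f4 (0.03). Mcidas and Cdc20b, which act early in multiciliated cell formation, differed from the members in order: Wnt-low cells exceeded Wnt-negative cells by at least 1.33 and 1.10 (fitted 1.70 and 1.87), and Wnt-high minus Wnt-low was -1.16 and -1.07 or further below 0 (fitted -1.51 and -1.58), all past the threshold. Mcidas, Cdc20b and Ccno were at background on all later Wnt-high and Wnt-negative arrays, and Cdc20b also on the earlier Wnt-negative ones. Foxj1 had no probe set of its own.

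Markers of other cell types also differed between the groups. All 12 ciliated cell markers were higher in Wnt-high cells than in Wnt-negative ones, with a median of 9.79, from 4.26 for Tppp3 and 7.05 for Dynlrb2 to 10.77 for Tmem212 and 10.90 for Cdhr3, while 9 of 10 markers of alveolar type II cells were lower, with a median of -4.60. Of 7 alveolar type I markers 6 were lower and 1 was higher, at 0.60. Of 9 club and goblet markers 8 were higher and 1 was lower, at -0.46, with a median of 3.72. Wnt-low cells had 9 of 9 club and goblet markers higher than Wnt-negative cells, with a median of 10.38, and Wnt-high cells had 8 of 9 lower than Wnt-low cells. Mean levels of the club and goblet list were 10.91 to 14.63 on Wnt-high arrays, 15.23 and above on Wnt-low arrays and 7.95 to 9.29 on Wnt-negative arrays. On the alveolar type II list they were 10.99 to 16.25, 14.25 to 17.38 and 17.58 to 18.40 in the same groups. Among the ciliated cell markers Dnah5, Ccdc39, Sntn and Mlf1 were at background on all 3 later Wnt-negative arrays. The basal markers Trp63 and Ngfr and the endothelial markers Pecam1, Cdh5 and Cldn5 were at background on all arrays of all groups. So were the immune markers Ptprc, Tyrobp and Cd3e and the fibroblast markers Col1a2 and Col3a1. The other measured markers of those lists were above background on some or all arrays. Kdr, an endothelial marker, was higher in Wnt-low cells than in Wnt-negative ones by at least 5.59 and in Wnt-high cells by at least 1.50 (adjusted p = 5.58e-07 and 0.0042). Esam, from the same list, differed by -4.26 between Wnt-high and Wnt-negative cells and by -2.92 between Wnt-low and Wnt-negative cells (adjusted p = 4.98e-06 and 5.72e-04). Of 5 basal markers, 2 were higher in Wnt-low cells than in Wnt-negative ones, Krt15 by at least 1.14 and Krt5, at background in Wnt-negative cells, with a fitted 0.52. Of 5 immune markers, 2 were lower in Wnt-high cells than in Wnt-negative ones, Lyz1 at -4.88 and Cd79a, at background in Wnt-high cells, with a fitted -0.23. Of 4 fibroblast markers, Dcn was higher in Wnt-low cells than in Wnt-negative ones, by 0.64 with the background in place of its later Wnt-negative values. That is no lower limit, since Dcn was not above background on every later Wnt-low array. The part of the sorted cells' makeup in the members' differences was not tested.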

How the data were processed

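RNA of sorted mouse lung epithelial cells was measured on 18 Affymetrix arrays. The authors deposited log2 values for 72688 probe sets, summarised with RMA per the submitters' processing notes. The software version and chip library are not given in the sources at hand. Values had 5 decimals in experiments 2 to 5 and 6 in experiments 7 to 9, and each set held probe sets with 1 value on all its arrays (153 and 235), so the sets were treated as runs normalized apart.

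Names came from the platform annotation. Of 65956 non-control probe sets, 30604 had 1 symbol, 2146 several and 33206 none. A gene was read from its 1-symbol probe set with the highest mean over the 18 arrays. No filter on dim genes was applied. Groups were compared with limma 3.58.1 in R 4.3.3 (lmFit and eBayes, two-sided), with group and run as terms over all 18 arrays. Benjamini-Hochberg adjustment was over 30145 genes at 0.05. The 3 groups shared 1 estimate of the spread for each gene, although Wnt-low arrays varied most. The fit was first run on simulated data. Those data had equal spread in all groups and no link between arrays of an experiment. Only Wnt-high against Wnt-negative was checked on them. Residuals of arrays with 1 experiment number correlated at 0.486 to 0.802 with groups removed and at 0.00339 to 0.516 with runs removed too; the number comes from the labels, and it was fitted as a block as an alternative. Other alternatives were other scalings, filters, each run alone, no run block and leaving out each experiment. The members, gene lists and tests were chosen with earlier results of these data known. Array values are given for the highest and lowest member of each complex and for any member called against the others. They are also given for Ift88, Kif3a, Dync2h1, Bbs1 and Tctn1. Of other lists, up to 4 genes from the 2 highest and 2 lowest are named, and all regulators. Basal, endothelial, immune and fibroblast markers are named where called or at background on all arrays. Ciliated cell markers are also named where at background on all later Wnt-negative arrays. Alveolar, club and goblet markers are not named. The number of arrays limits the precision, and p-values measure the spread between pools of separate experiments.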

Additional observations from a re-analysis of the deposited data

Results flagged for a closer look

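Within groups of 6 arrays, each value taken relative to its run, 7 of 111 sets of member values had 1 array far from the rest, where chance gives about 1 in 20. The gap to the nearest other array, as a share of the whole range, is given with the limit of 0.625. In Wnt-high cells, Bbs1 was lowest in experiment 4 (9.94, a gap share of 0.796) and Mks1 highest in experiment 5 (8.11, 0.638). In Wnt-low cells, Ift80 was highest in experiment 3 (9.11, 0.702) and Tctn1 lowest in experiment 4 (6.09, 0.738). In Wnt-negative cells, Tctn2 was highest in experiment 7 (5.81, 0.761), Ift172 lowest in experiment 7 (5.51, 0.689) and Cluap1 highest in experiment 8 (6.43, 0.66).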

How the results depend on the processing

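For Wnt-high against Wnt-negative cells, the count of members higher stayed between 34 and 36 under every alternative, and the count lower fell to 0 without the run as a block and when a log2 difference of at least 1 was asked for. For Wnt-low against Wnt-negative cells, the 32 members higher became 29 with 2 groups fitted at a time, where Bbs12, Ift80 and Ift81 were lost. They became 10 without the run as a block, 7 in experiments 2 to 5 alone and 21 with a difference of at least 1. Ift20, the 1 member lower there, was lost (0) under those 2 settings of no run block and at least 1, with arrays centred on their medians and in experiments 7 to 9 alone. For Wnt-high against Wnt-low cells, the 36 higher became 23 without the run as a block and 23 in experiments 2 to 5 alone. Leaving out each experiment gave medians of 2.96 to 3.16 (Wnt-high against Wnt-negative), 0.95 to 1.21 (Wnt-low against Wnt-negative) and 1.97 to 2.36 (Wnt-high against Wnt-low), with 35 to 36, 27 to 33 and 35 to 36 members higher and 1, 1 and 0 lower. With the experiment number as a replicate block, 36, 34 and 36 members were higher and 1, 1 and 0 lower, and the pairing ended no call of a member. Of 1080 values of 18 members under 20 alternatives, 1006 kept direction and side of the threshold, 67 lost the call, 3 gained one and 4 changed sign, none of the 4 past the threshold. Those 4 were Bbs10 for Wnt-low minus Wnt-negative at 0.03 (arrays centred), 0.00 (quantile normalization) and 0.01 (without experiment 5; -0.08 to 0.01 over the experiments left out), and Ift20 for Wnt-high minus Wnt-low at 0.03 (quantile normalization). Quantile normalization also left the Wnt-high minus Wnt-negative difference of Ift20 at -0.31, against -0.53. The run block takes out the offset between runs, and experiments 2 to 5 alone hold 9 of 18 arrays; no other cause was tested. Background limits the 8 members at background in later Wnt-negative cells, and in part B9d1 and Bbs5.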
